A study of Mus musculus with 8 samples.

Results

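The genes described here are 32 genes of the piRNA pathway and of germ granules, the RNA-rich bodies of germ cells in which much of that pathway works. They were taken by symbol from a list, and all 32 were found among the 40840 genes counted in mouse testes at 12 days after birth (P12). TRA2B is a splicing activator of the SR-like protein family, and its gene contains a poison exon, an exon that brings a premature stop codon into the mRNA. The study asked what this poison exon is needed for in germ cells, and at P12 the most advanced germ cells of the first wave of spermatogenesis are near the step from zygotene to pachytene. Stranded mRNA sequencing of the whole testis was done for 4 mice of each genotype, wild type and *Tra2b-cPEko*, lettered A to D. Wild type mice were *Tra2bPE fl/+* without Cre. *Tra2b-cPEko* mice were *Tra2b fl/-;Vasa-Cre*, in which Cre deletes the poison exon in germ cells from before birth, and their somatic cells still carry 1 allele with the exon. The genotypes therefore differ in the Cre transgene and in the germline allele as well as in the germ cell deletion, and these cannot be told apart here. *Vasa* is another name of *Ddx4*, one of the 32 genes, whose promoter drives the Cre.

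PIWI-interacting RNAs (piRNAs) are short germline RNAs that guide PIWI proteins to transposon and gene transcripts. Long precursors are unwound and cut at the surface of mitochondria, loaded into a PIWI protein, trimmed and methylated at their 3′ end, and Tudor domain proteins gather these steps in germ granules by binding arginine-methylated PIWI proteins. In the mouse, a prenatal set of piRNAs directs DNA methylation of retrotransposons, and a much larger pachytene set appears when spermatocytes reach the pachytene stage.

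The bases upstream of 4 of the genes are shown first, because they are promoters of genes whose values the results turn on: *Mael*, whose product is needed for piRNA formation and retrotransposon silencing; *Wdr77*, the partner of the arginine methyltransferase PRMT5; *Piwil1*, the PIWI protein of pachytene piRNAs; and *Ddx4*, a germ granule helicase. Each line gives the 250 bases before the annotated start, 5′ to 3′ on the strand of the gene, from RefSeq on GRCm38.p6. The spans are chr1:166238745-166238994 on the minus strand for *Mael*, chr3:105959248-105959497 on the plus strand for *Wdr77*, chr5:128735996-128736245 on the plus strand for *Piwil1* and chr13:112652311-112652560 on the minus strand for *Ddx4*. Capitals mark exact matches, on either strand, to an E-box (CACGTG), an E2F motif (TCCCGC) or a MYB motif (CAGTTG).
Mael: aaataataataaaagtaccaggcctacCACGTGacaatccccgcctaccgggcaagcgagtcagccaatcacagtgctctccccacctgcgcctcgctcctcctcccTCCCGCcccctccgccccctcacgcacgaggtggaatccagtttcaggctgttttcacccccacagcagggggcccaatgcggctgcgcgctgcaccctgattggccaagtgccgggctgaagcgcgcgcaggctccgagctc
Wdr77: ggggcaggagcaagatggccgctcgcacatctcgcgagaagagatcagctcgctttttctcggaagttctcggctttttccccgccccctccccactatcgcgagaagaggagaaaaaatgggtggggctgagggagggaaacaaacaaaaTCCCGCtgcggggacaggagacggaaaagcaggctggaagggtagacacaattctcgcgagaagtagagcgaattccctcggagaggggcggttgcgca
Piwil1: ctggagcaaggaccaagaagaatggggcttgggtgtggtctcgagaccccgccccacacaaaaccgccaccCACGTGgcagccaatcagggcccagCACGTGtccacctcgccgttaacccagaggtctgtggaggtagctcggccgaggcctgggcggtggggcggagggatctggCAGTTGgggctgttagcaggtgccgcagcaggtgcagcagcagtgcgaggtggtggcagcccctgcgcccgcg
Ddx4: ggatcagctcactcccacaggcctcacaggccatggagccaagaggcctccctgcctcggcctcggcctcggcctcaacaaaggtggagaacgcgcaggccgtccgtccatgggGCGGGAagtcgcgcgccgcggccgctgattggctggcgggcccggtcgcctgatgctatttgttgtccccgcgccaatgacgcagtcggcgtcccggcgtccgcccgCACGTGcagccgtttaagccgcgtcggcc

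*Piwil1* had E-boxes 179 and 154 bases before its start and a MYB motif 73 bases before it. *Mael* had an E-box 223 bases and an E2F motif 143 bases before its start. *Ddx4* had its E-box 29 bases before the start and an E2F motif, on the opposite strand, 136 bases before it. In the printed bases *Wdr77* had only an E2F motif, 99 bases before the start, and its E-box lay past the start. A RefSeq promoter window, from 250 bases before to 50 bases after a start, was matched for 25 of the 32 genes, with 34 windows in all. *Spocd1*, *Rnf17*, *Tdrd6*, *Pnldc1*, *Morc1*, *Piwil2* and *Tex15* had no matched window. The E-box letters were present in a window of 11 of the 25 genes (44.0%), against 8.09% of all 27025 genes with a window. Those 11 genes were *Mael*, *Wdr77*, *Piwil1*, *Fkbp6*, *Stk31*, *Ddx25*, *Pld6*, *Tdrd9*, *Ddx4*, *Mov10l1* and *Tdrd1*, so that a gene with a higher fitted value in *Tra2b-cPEko* testes (*Mov10l1*) was among them. The windows of the 32-gene list were also richer in CpG, with a median of 22 CpG per window against 7 over all windows. Among windows with at least 15 CpG, the E-box letters were found in 13 of 26 windows of the list against 11.3% of all 11378 windows. Windows of 1 gene can overlap, and overlapping windows of *Fkbp6*, *Stk31* and *Tdrd1* each counted the same E-box sites more than once. The E2F letters were found in 40.0% of the 25 genes and 22.0% of all genes, but in windows with at least 15 CpG the order turned, with 38.5% against 45.4%. The MYB letters were found in 12.0% of the 25 genes and 15.4% of all genes. Counted by windows this order turned, with 14.7% of the listed windows against 13.7% of all windows, and 15.4% against 7.96% of windows with at least 15 CpG. The listed MYB windows belonged to 3 genes, and overlapping *Fkbp6* windows held the same site, so the turn is in windows and not in genes. The letters of a cAMP response element (TGACGTCA) were found in 0 of the 25 genes and in 2.03% of all genes. These matches describe letters in a window and do not show that a factor binds there.

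**Figure D1:**
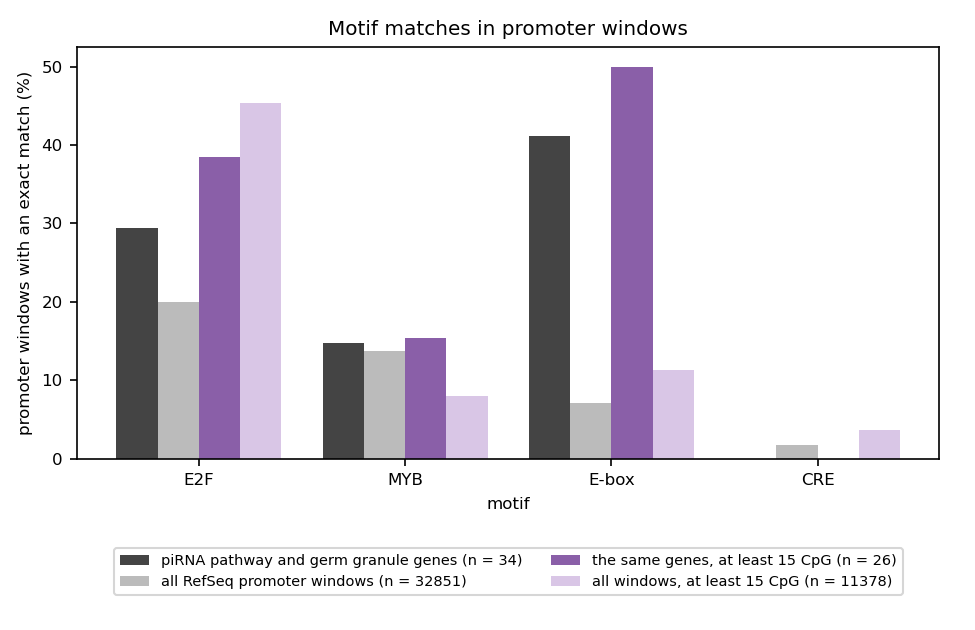
Share of RefSeq promoter windows (percent) with at least 1 exact match to each motif on either strand, for the 34 windows of the listed genes and all 32851 windows, and for the 26 and 11378 of them with at least 15 CpG. The E-box bars stand at 41.2% for the listed genes and 7.15% for all windows, and the E2F bars change order between all windows and those with at least 15 CpG. Windows of 1 gene can overlap and hold the same match.

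All 32 genes were expressed above the filter on low counts, with 35 to 36422 reads per gene and mouse. To compare genes with each other, CPM (counts scaled to the TMM-adjusted library total) were divided by the length of the gene's exons in kilobases. The levels in this paragraph are on that scale, as the mean ± SD of the 4 wild type mice. The length merges the exons of all GENCODE transcripts of a gene, from 1748 bases for *Mael* to 13625 for *Rnf17*. It can exceed the length of the mRNA present, so the order between genes depends on the annotation, which the SDs do not cover. *Mael* was the highest at 91.4 ± 8.37, ahead of *Ddx4* at 66.6 ± 7.13. *Tex15*, a nuclear factor of piRNA-directed DNA methylation, was at 65.4 ± 6.06, so that it did not differ from *Ddx4* beyond the spread. A group between 42.8 and 48.4 followed, with the helicase gene *Mov10l1*, the PIWI gene *Piwil2*, the co-chaperone gene *Fkbp6* and *Tex19.1*, and its members overlapped within their SDs. *Piwil1* was at 6.20 ± 4.12, below *Piwil2* at 46.5 ± 4.18. The lowest were *Piwil4*, the nuclear PIWI protein of prenatal germ cells, at 1.89 ± 0.0987, and *Tdrd6*, a component of the chromatoid body of later cells, at 0.342 ± 0.216. The order has *Piwil2* above *Piwil1* and *Piwil4* in both genotypes, as the *Tra2b-cPEko* levels were 42.3 ± 1.33, 2.44 ± 0.473 and 1.65 ± 0.105.

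**Figure D2:**
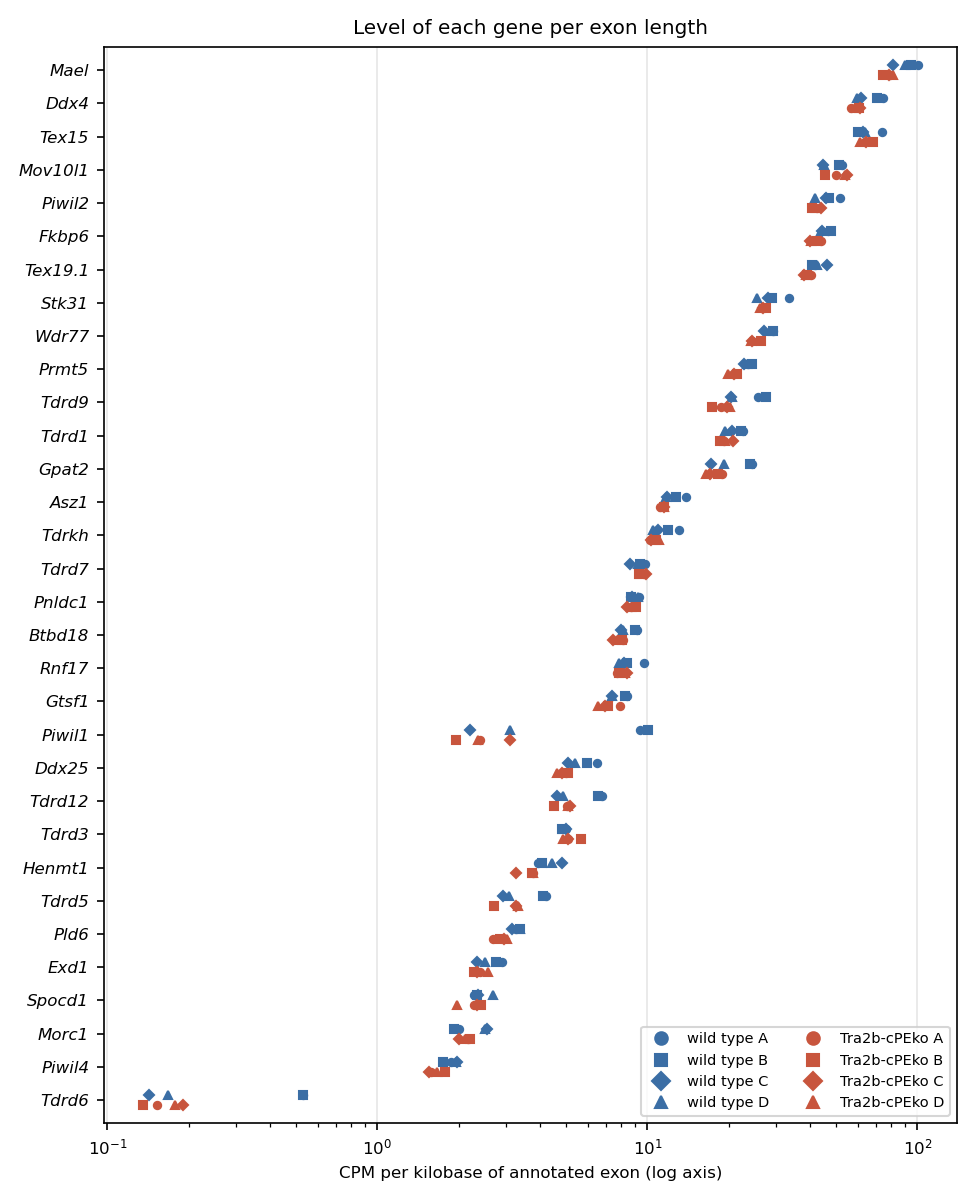
CPM per kilobase of exon (log axis) of the 32 genes, 1 point per mouse and genotype, in the order of the wild type mean. *Mael* leads at 91.4 and *Tdrd6* is lowest at 0.342, and the points of *Piwil1* and *Tdrd6* spread over more of the axis than those of the other genes.

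Reads on genes numbered between 36757386 and 59101569 per mouse, and 19104 genes passed the filter and were tested with edgeR. *Tra2b* itself was at 158, 166, 156 and 176 CPM in wild type A to D and at 200, 190, 192 and 209 CPM in *Tra2b-cPEko* A to D, without overlap, with a log2 fold change of 0.27 ± 0.05 (SE), an edgeR adjusted p of 0.0552 and a DESeq2 adjusted p of 0.000195. These counts cover the whole gene and do not show the poison exon. Wild type A and B stood apart from the other 6 mice. The summed level of 15 pachytene spermatocyte markers was 328 and 338 CPM in wild type A and B, 178 and 212 CPM in wild type C and D, and 197 to 250 CPM in *Tra2b-cPEko* testes. The defining late markers *Pgk2*, *Adam3*, *Acrv1* and *H1f6* were each under 0.5 CPM in both genotypes. The summed level of 26 leptotene and zygotene markers was 3280 and 2903 CPM in wild type A and B, 2465 and 2591 CPM in wild type C and D, and 2507 to 2610 CPM in *Tra2b-cPEko* testes. The labels give no litter or batch, and the study states that the exact age of P12 testes may bring variation in cell types.

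Most of the 32 genes had slightly lower fitted levels in *Tra2b-cPEko* than in wild type testes, and none passed the threshold of an edgeR adjusted p under 0.05. Of the 32, 29 had a fitted log2 fold change under 0 and 3 above it, against 50.3% of all genes tested under 0. The median log2 fold change was −0.14 over the list and 0.00 over all genes after rounding (−0.00108). Adjusted p-values ran from 0.0912 to 0.936, beside a background of 0.0262% of all genes called lower and 0.131% called higher. At an unadjusted edgeR p under 0.05, 15 of the 32 were lower (background 7.07%) and 0 were higher (background 8.22%). In 8 genes the 4 *Tra2b-cPEko* mice all lay below the 4 wild type mice (background 4.18%), and in 0 genes did they all lie above (background 4.36%). DESeq2 called 3 of the 32 lower, *Wdr77*, *Prmt5* and *Mael* (background 1.14%), and called 0 higher (background 1.66%). The genes of the list were measured in the same mice and are not independent of each other, so these counts are descriptions of the list. Which cells, germline or somatic, gave the reads of each gene was not tested. In RNA from whole testes, fewer cells of a type and less RNA per cell cannot be told apart.

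**Figure D3:**
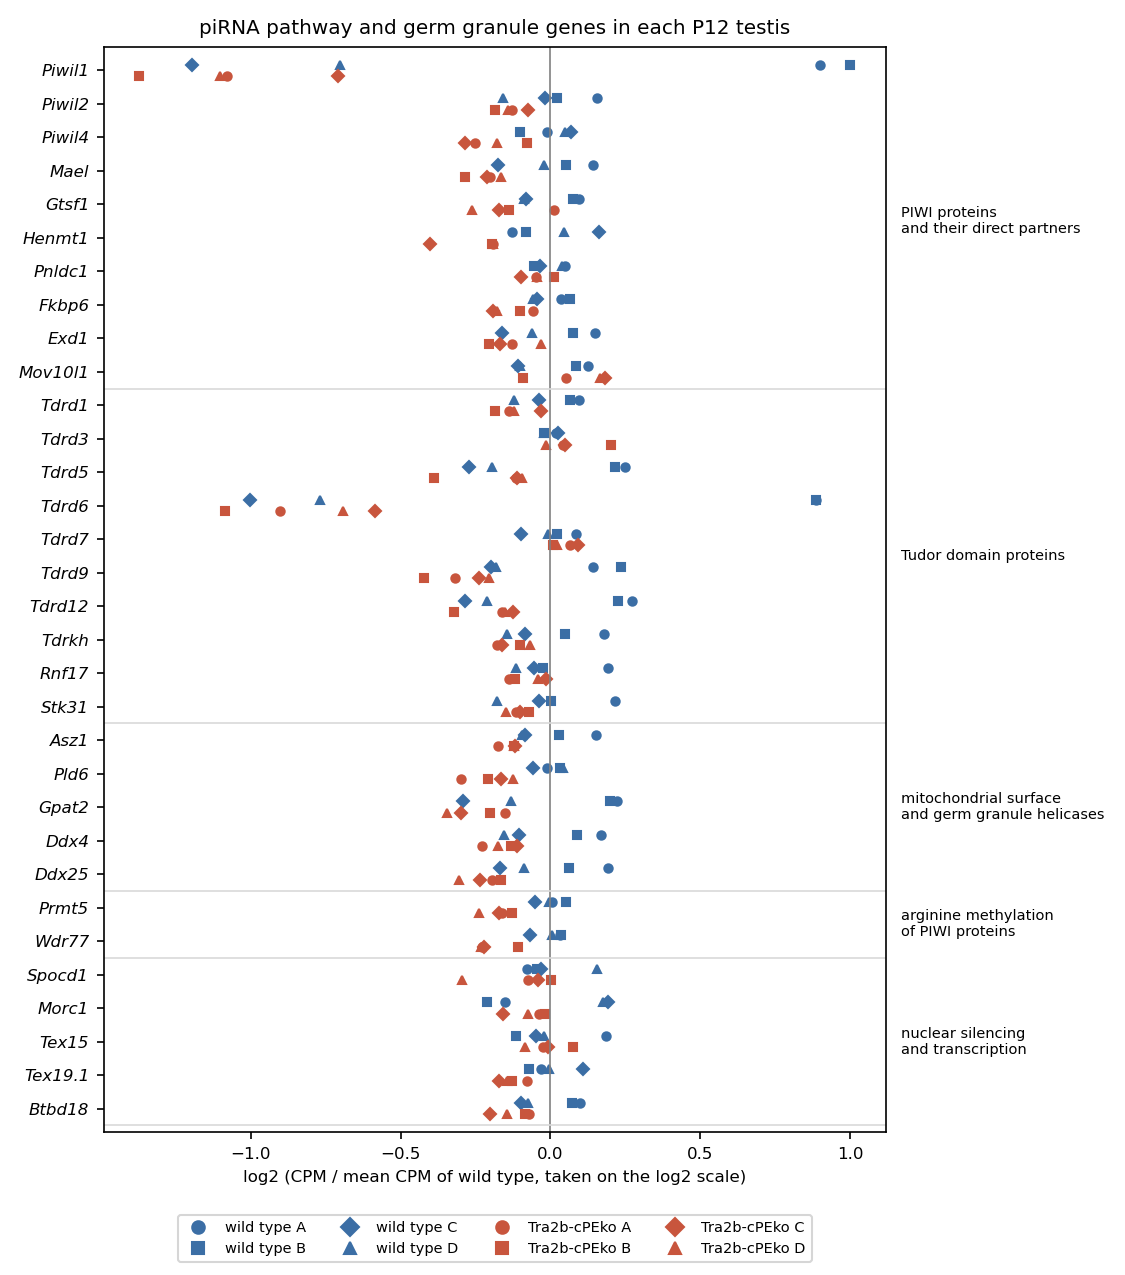
Each of the 32 genes, grouped by role on the vertical axis, with 1 point per mouse on the horizontal axis, which is the log2 difference of its CPM from the mean of the wild type log2 CPM. Wild type A holds the highest value of 17 genes and wild type B of 6, and most *Tra2b-cPEko* points lie below 0, with medians per mouse from −0.16 to −0.13.

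Among the 2 genes of arginine methylation, both were lower, and they had the smallest p-values of the list. PRMT5 places symmetric dimethylarginine on PIWI proteins and on splicing proteins, and WDR77 (MEP50) is its obligate partner. *Wdr77* (GRCm39 chromosome 3, 105866685 to 105877353, plus strand) was at 150, 150, 140 and 147 CPM in wild type A to D and at 125, 136, 126 and 125 CPM in *Tra2b-cPEko* A to D. The groups did not overlap. Wild type A and B were above C and D, as for the pachytene markers, but only at 1.05 times them on average. Its log2 fold change was −0.20 ± 0.04 (SE), or −12.8% in mean CPM, with an edgeR adjusted p of 0.0912, a DESeq2 adjusted p of 0.00302 and a two-sided exact permutation p of 0.0286, the smallest that 4 against 4 mice can give. *Prmt5* (chromosome 14, 54744636 to 54754982, minus strand) was at 102, 105, 98.1 and 101 CPM in wild type and 90.8, 92.9, 90.1 and 86.2 CPM in *Tra2b-cPEko* testes. Its groups did not overlap either, with a log2 fold change of −0.17 ± 0.04 (SE), an edgeR adjusted p of 0.106 and a DESeq2 adjusted p of 0.00723. *Wdr77* overlaps *Atp5pb* on the other strand. It also overlaps *Gm42890* on the same strand, a gene with which it shares near-identical sequence. The counting may not have kept these apart, while *Prmt5* has no such overlap or match.

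The 10 genes of PIWI proteins and their direct partners had a median log2 fold change of −0.14, with 9 below 0 and *Mov10l1* above. *Mael* (chromosome 1, 166028770 to 166066331, minus strand) was at 176, 165, 141 and 157 CPM in wild type and 138, 131, 138 and 142 CPM in *Tra2b-cPEko* testes. Only wild type C, below *Tra2b-cPEko* D, made its groups overlap. The log2 fold change was −0.22 ± 0.06 (SE), with an edgeR adjusted p of 0.140 and a DESeq2 adjusted p of 0.0381. *Henmt1*, which encodes the enzyme that methylates the 3′ end of mature piRNAs, was at 11.2, 11.6, 13.7 and 12.6 CPM in wild type and 10.7, 10.7, 9.26 and 10.7 CPM in *Tra2b-cPEko* testes. Its wild type mice were ordered opposite to the pachytene markers, with C and D above A and B, and the groups did not overlap. The log2 fold change was −0.25 ± 0.09 (SE), with an edgeR adjusted p of 0.216. *Piwil4* was at 10.1, 9.46, 10.6 and 10.5 CPM in wild type and 8.54, 9.62, 8.34 and 8.99 CPM in *Tra2b-cPEko* testes. The groups overlapped by wild type B and *Tra2b-cPEko* B alone, with a log2 fold change of −0.20 ± 0.08 (SE) and an edgeR adjusted p of 0.268.

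*Piwil1* had the largest fold change of the list and the largest SE. It was at 43.6, 46.8, 10.2 and 14.4 CPM in wild type A to D and at 11.1, 9.04, 14.3 and 10.9 CPM in *Tra2b-cPEko* A to D. Wild type A and B were 3.68 times wild type C and D on average, C lay inside the *Tra2b-cPEko* range and D just above its highest mouse. The log2 fold change of −1.33 ± 0.56 (SE) had an edgeR adjusted p of 0.332 and an exact permutation p of 0.171. The other PIWI gene, *Piwil2*, which serves both prenatal and pachytene piRNAs, was at 304, 277, 269 and 244 CPM in wild type and 249.4, 239.4, 258.3 and 246.8 CPM in *Tra2b-cPEko* testes. Wild type D lay inside the *Tra2b-cPEko* range, and the log2 fold change was −0.14 ± 0.06 (SE) with an edgeR adjusted p of 0.299.

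*Fkbp6*, whose product acts with HSP90 in PIWI loading, did not overlap between genotypes, at 225 to 245 CPM in wild type and 205 to 225 CPM in *Tra2b-cPEko* testes, where the lowest wild type mouse was at 225.1 and the highest *Tra2b-cPEko* mouse at 224.6 CPM. Its log2 fold change was −0.13 ± 0.05 (SE) with an edgeR adjusted p of 0.218. *Gtsf1*, a zinc finger cofactor of PIWI cleavage, and *Exd1*, a partner of TDRD12, both had a log2 fold change of −0.14 ± 0.08 (SE) with overlapping groups. *Pnldc1*, the exonuclease that trims piRNA 3′ ends, averaged 29.4 ± 1.05 CPM (SD, n = 4) and 28.5 ± 0.896 CPM in wild type and *Tra2b-cPEko* testes, a log2 fold change of −0.05 ± 0.05 (SE). *Mov10l1*, the helicase that feeds precursors into the pathway, was at 235, 228, 200 and 201 CPM in wild type and 223, 202, 245 and 241 CPM in *Tra2b-cPEko* testes. Its highest mice were *Tra2b-cPEko* C and D, followed by wild type A and B, with a log2 fold change of 0.08 ± 0.07 (SE) and an edgeR adjusted p of 0.631.

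**Figure D4:**
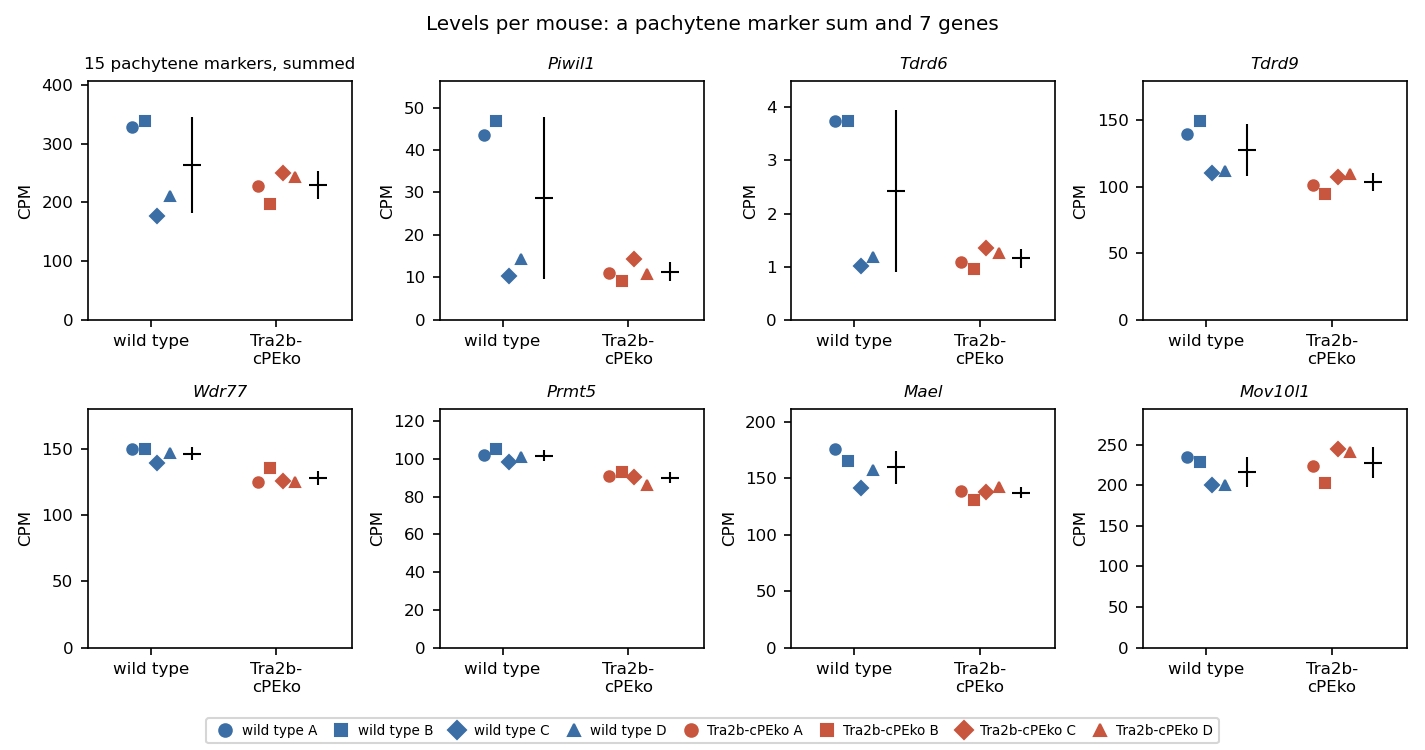
CPM (linear axes from 0) in each mouse for the sum of 15 pachytene markers and for 7 genes, with the mean ± SD (n = 4) beside each genotype. Wild type A and B lie apart from the other mice for the pachytene sum, *Piwil1*, *Tdrd6* and *Tdrd9*, whereas for *Wdr77* and *Prmt5* all wild type mice lie above all *Tra2b-cPEko* mice within a narrow range.

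The 5 genes of the mitochondrial surface and of germ granule helicases were all lower at an unadjusted p under 0.05, with a median log2 fold change of −0.20 and edgeR adjusted p-values between 0.182 and 0.320. *Pld6*, the mitochondrial endonuclease that cuts piRNA precursors, was at 17.8, 18.4, 17.2 and 18.5 CPM in wild type and 14.6, 15.5, 16.0 and 16.5 CPM in *Tra2b-cPEko* testes. The groups did not overlap and wild type A and B did not stand apart from C and D (ratio 1.01), with a log2 fold change of −0.20 ± 0.06 (SE) and an edgeR adjusted p of 0.182. *Asz1* (GASZ), which tethers germ granules to mitochondria, was at 41.0, 37.6, 34.7 and 34.6 CPM in wild type and 32.7, 33.9, 34.0 and 33.9 CPM in *Tra2b-cPEko* testes. These groups did not overlap either, although wild type D was only just above *Tra2b-cPEko* C, and the log2 fold change was −0.14 ± 0.06 (SE). *Gpat2*, a mitochondrial outer membrane protein needed for primary piRNA processing, was at 148, 146, 104 and 116 CPM in wild type and 114.3, 110.3, 103.2 and 99.96 CPM in *Tra2b-cPEko* testes. Wild type A and B were 1.34 times C and D, and C lay inside the *Tra2b-cPEko* range, with a log2 fold change of −0.26 ± 0.11 (SE). *Ddx25* (GRTH), a helicase of the chromatoid body, was at 45.8, 41.9, 35.7 and 37.8 CPM in wild type and 35.1, 35.8, 34.1 and 32.4 CPM in *Tra2b-cPEko* testes. Wild type C and *Tra2b-cPEko* B made the groups overlap, with a log2 fold change of −0.23 ± 0.07 (SE) and an edgeR adjusted p of 0.189. *Ddx4* was at 274, 259, 226 and 219 CPM in wild type and 208, 222, 225 and 216 CPM in *Tra2b-cPEko* testes. Only wild type A and B were clearly above the *Tra2b-cPEko* range, and the log2 fold change was −0.17 ± 0.07 (SE) with an edgeR adjusted p of 0.268.

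Of the 10 Tudor domain genes, 8 were below 0 and 2 above, with a median log2 fold change of −0.13, and 2 (*Tdrd9* and *Tdrd1*) had an unadjusted p under 0.05. *Tdrd9*, a helicase with a Tudor domain that works with nuclear PIWI proteins, was at 140, 149, 111 and 112 CPM in wild type and 102, 94.7, 108 and 110 CPM in *Tra2b-cPEko* testes. The groups did not overlap, but wild type C and D lay within 2 CPM of *Tra2b-cPEko* D, while A and B were 1.30 times C and D. Its log2 fold change was −0.30 ± 0.10 (SE) with an edgeR adjusted p of 0.221. *Tdrd6* was at 3.73, 3.74, 1.01 and 1.19 CPM in wild type and 1.08, 0.953, 1.35 and 1.25 CPM in *Tra2b-cPEko* testes. As for *Piwil1*, wild type A and B were alone, at 3.40 times C and D, and the log2 fold change of −1.04 ± 0.47 (SE) had an edgeR adjusted p of 0.347. *Tdrd12*, a partner of *Exd1* in piRNA amplification, was at 59.5, 57.6, 40.4 and 42.6 CPM in wild type and 39.4 to 45.2 CPM in *Tra2b-cPEko* testes, and *Tdrd5*, a germ granule factor with LOTUS domains, was at 45.1, 44.0, 31.4 and 33.1 CPM against 29.0 to 35.5 CPM. In both, wild type C and D lay inside the *Tra2b-cPEko* range. *Tdrd1*, the scaffold that binds PIWIL2, was at 106 to 123 CPM in wild type and 101 to 113 CPM in *Tra2b-cPEko* testes, a log2 fold change of −0.12 ± 0.05 (SE). *Tdrkh*, which holds PIWI proteins and the trimmer at mitochondria, had −0.13 ± 0.06 (SE), *Stk31* had −0.11 ± 0.07 (SE) and *Rnf17*, a RING and Tudor protein that limits piRNA amplification, had −0.08 ± 0.06 (SE), with groups that overlapped. *Tdrd3*, a methylarginine reader that is also present outside the germline, averaged 45.7 ± 0.805 CPM (SD, n = 4) and 48.1 ± 3.12 CPM in wild type and *Tra2b-cPEko* testes. *Tdrd7*, of the chromatoid body, was at 77.4 ± 4.05 and 79.9 ± 2.18 CPM, and neither of these 2 differed beyond the spread (edgeR adjusted p 0.540 and 0.670).

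The 5 genes of nuclear silencing and transcription were all below 0, with a median log2 fold change of −0.10, and 1, *Tex19.1*, had an unadjusted p under 0.05. *Tex19.1*, a germline factor that acts on retrotransposons, was at 78.3, 76.1, 86.2 and 79.7 CPM in wild type and 75.7, 73.3, 71.1 and 72.3 CPM in *Tra2b-cPEko* testes. The groups did not overlap, wild type C was the highest, and the log2 fold change was −0.13 ± 0.05 (SE) with an edgeR adjusted p of 0.235. *Morc1*, an ATPase needed for retrotransposon silencing, was at 19.6, 18.8, 24.8 and 24.5 CPM in wild type and 21.2, 21.5, 19.5 and 20.6 CPM in *Tra2b-cPEko* testes. Here wild type A and B were the low ones, at 0.776 times C and D, the smallest such ratio of the list, and the log2 fold change was −0.09 ± 0.09 (SE). *Spocd1*, which links nuclear PIWI protein to DNA methylation, had −0.10 ± 0.09 (SE), and *Btbd18*, which helps transcription through pachytene piRNA precursor loci, had −0.13 ± 0.06 (SE). *Tex15* averaged 629 ± 58.3 CPM (SD, n = 4) and 623 ± 28.9 CPM in wild type and *Tra2b-cPEko* testes, with a log2 fold change of −0.01 ± 0.06 (SE) that changed sign under other settings.

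Many of the genes also varied among the wild type mice. The wild type SD was above the *Tra2b-cPEko* SD in 25 of the 32 genes, and wild type A and B were above C and D on average in 25. The ratio of A and B to C and D was over 1.2 in 6 genes, *Piwil1*, *Tdrd6*, *Tdrd12*, *Tdrd5*, *Gpat2* and *Tdrd9*. For these counts the shares over all tested genes were not computed, so they are not shown to be particular to the list. The median of the 32 log2 differences from the wild type mean was 0.13 in wild type A and 0.05 in B, −0.08 in both C and D, and −0.16 to −0.13 in *Tra2b-cPEko* testes. The summed CPM of the 32 genes was 3592, 3349, 3071 and 3074 in wild type A to D and 3011, 3022, 3052 and 2985 in *Tra2b-cPEko* A to D. Divided by the summed leptotene and zygotene markers, it was 1.09, 1.15, 1.25 and 1.19 in wild type and 1.18, 1.16, 1.18 and 1.19 in *Tra2b-cPEko* testes, so that the groups overlapped on this ratio.

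With wild type A and B left out, an alternative chosen after the data were seen, 23 of the 32 genes were below 0 (background 49.5%) with a median log2 fold change of −0.04. At an unadjusted p under 0.05, 8 were then lower (background 4.24%) and 1, *Mov10l1*, was higher (background 6.39%), and 0 passed the adjusted threshold. With the mean leptotene and zygotene marker level as a covariate, 28 were below 0, the median was −0.06, and 9 were lower at an unadjusted p under 0.05 (background 4.34%). With the mean pachytene marker level as a covariate, 26 were below 0, the median was −0.06, 10 were lower (background 5.44%) and *Mov10l1* alone was higher (background 7.90%). The 7 genes with an unadjusted p under 0.05 in the comparison of all mice and in each of these 3 fits were *Henmt1*, *Mael*, *Piwil4*, *Pld6*, *Prmt5*, *Tex19.1* and *Wdr77*, all lower. The share of all genes that pass every one of these fits was not computed, and the fits share mice. Wild type A and B were the lower pair for *Henmt1*, *Piwil4* and *Tex19.1* (0.865, 0.923 and 0.931 times C and D). For *Mael*, *Pld6*, *Prmt5* and *Wdr77* they were the higher pair (1.14, 1.01, 1.04 and 1.05 times). *Wdr77* had a log2 fold change of −0.16 ± 0.05 (SE) and *Prmt5* −0.14 ± 0.05 (SE) without wild type A and B, and *Henmt1* reached −0.35 ± 0.10 (SE), with edgeR adjusted p-values of 0.298, 0.334 and 0.247. *Piwil1* had −0.11 ± 0.20 (SE) and *Tdrd6* 0.08 ± 0.20 (SE) in that fit, and *Ddx4* had −0.03 ± 0.05 (SE). *Morc1* went the other way, from −0.09 to −0.25 ± 0.07 (SE), with an edgeR adjusted p of 0.239, and *Mov10l1* went from 0.08 to 0.19 ± 0.07 (SE), with an adjusted p of 0.408. A covariate measured in the same libraries may take up part of a genotype difference.

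**Figure D5:**
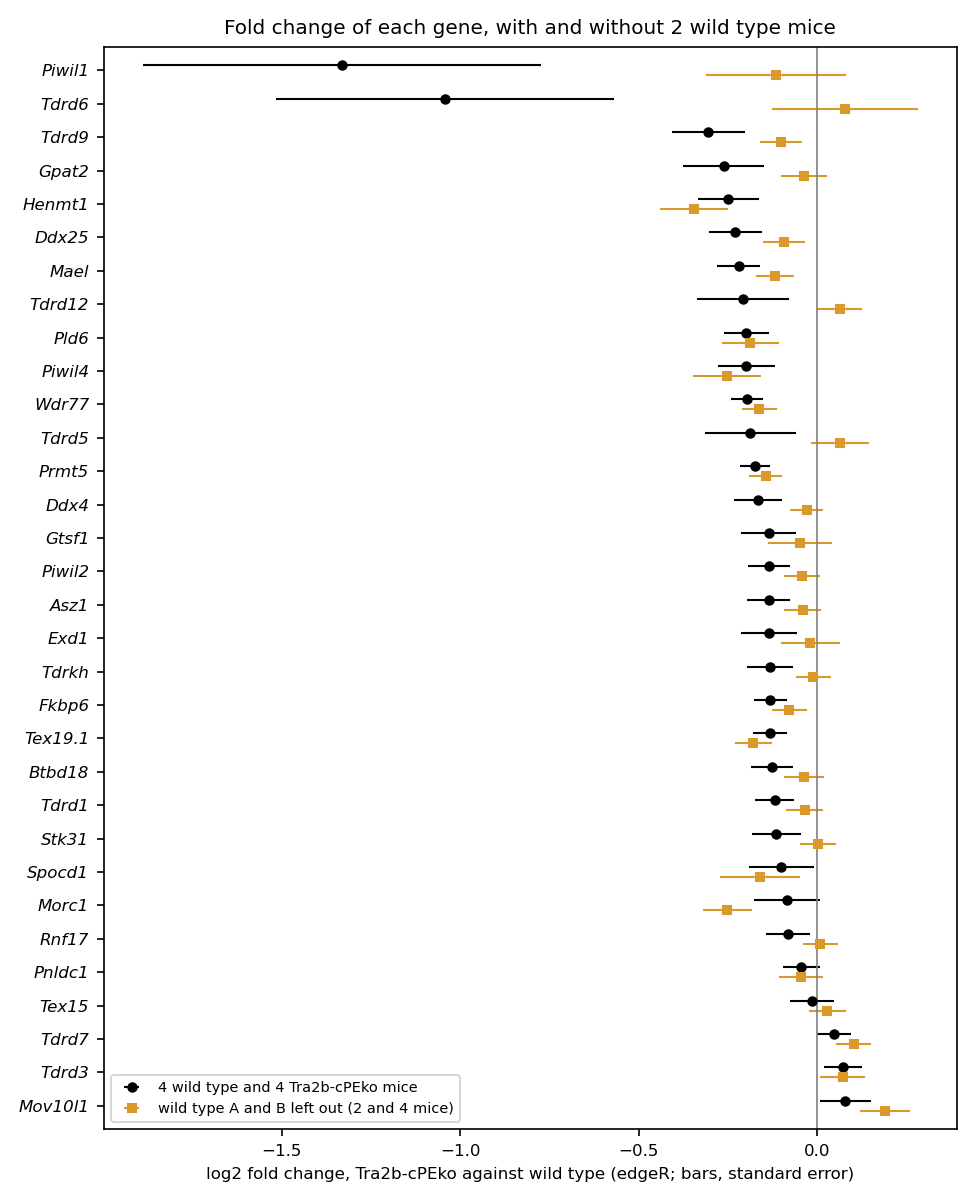
Log2 fold change of each of the 32 genes, *Tra2b-cPEko* against wild type, with its SE, in the fit of all 8 mice and in the fit without wild type A and B. *Piwil1* goes from −1.33 to −0.11 and *Tdrd6* from −1.04 to 0.08, whereas *Wdr77* goes from −0.20 to −0.16 and *Henmt1* from −0.25 to −0.35.

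A further 40 genes around the pathway were listed by function, of which 38 were found by symbol and 36 were tested, *Gtsf1l* and *Gtsf2* having at most 2 reads in any mouse. Of the 36, 25 were below 0 and 11 above, against 50.3% of all genes tested below 0. The median log2 fold change was −0.03, and edgeR called 0. At an unadjusted p under 0.05, 4 were lower (*Adad2*, *Elavl1*, *Coprs* and *Dnmt3l*, background 7.07%) and 2 were higher (*Ago2* and *Dicer1*, background 8.22%). Without overlap between the genotypes were *Adad2* and *Clns1a*, which were lower (background 4.18%), and *Dicer1*, which was higher (background 4.36%). These shares by unadjusted p and by overlap were near the background. The shares below 0 and called by DESeq2 were above it, with 2 called lower by DESeq2 (*Adad2* and *Elavl1*, background 1.14%) and 1 higher (*Ago2*, background 1.66%). *Adad2*, a germ granule RNA-binding protein gene, was at 34.2, 38.8, 22.3 and 25.8 CPM in wild type and 20.5, 20.7, 20.1 and 20.9 CPM in *Tra2b-cPEko* testes. The groups did not overlap, wild type A and B were again the highest, and the log2 fold change was −0.56 ± 0.16 (SE) with an edgeR adjusted p of 0.180 and a DESeq2 adjusted p of 0.00812. *Elavl1*, a widely expressed mRNA-stabilising protein gene, had −0.18 ± 0.05 (SE) with a DESeq2 adjusted p of 0.0486.

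*Ago2*, the slicing Argonaute of the microRNA pathway, was at 55.0, 47.5, 63.6 and 53.2 CPM in wild type and 61.8, 69.2, 82.2 and 63.9 CPM in *Tra2b-cPEko* testes. Wild type C made the groups overlap, and the log2 fold change was 0.34 ± 0.11 (SE) with an edgeR adjusted p of 0.197 and a DESeq2 adjusted p of 0.0460. *Dicer1*, which cuts microRNA precursors, was at 190 to 219 CPM in wild type and 221 to 228 CPM in *Tra2b-cPEko* testes, a log2 fold change of 0.11 ± 0.05 (SE) with an edgeR adjusted p of 0.299. Among the partners of PRMT5, *Coprs* had −0.19 ± 0.06 (SE), *Clns1a* −0.06 ± 0.04 (SE) and *Riok1* 0.00 ± 0.05 (SE) after rounding (0.0045), so that the shared direction of *Prmt5* and *Wdr77* was not found in all of them. *Mybl1*, which activates pachytene piRNA precursor loci, had 0.09 ± 0.07 (SE), and *Tcfl5* −0.09 ± 0.07 (SE). *Dazl*, a germ cell translation factor, was at 628 to 731 CPM in wild type and 625 to 648 CPM in *Tra2b-cPEko* testes, which shows that germ cell transcripts were present in every mouse.

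Of the markers of 9 testis cell types, edgeR called 1 gene, in the list of differentiating spermatogonia, and the part of cell types in the values of the 32 genes was not tested beyond the covariates above. All 7 markers of differentiating spermatogonia were below 0, with a median log2 fold change of −0.28. Their sum was 683 to 738 CPM in wild type and 566 to 671 CPM in *Tra2b-cPEko* testes, without overlap. Markers of undifferentiated spermatogonia summed to 415 to 516 and 437 to 468 CPM, with a median log2 fold change of −0.05. Of the 26 leptotene and zygotene markers 22 were below 0, with a median log2 fold change of −0.15, close to the −0.14 of the piRNA pathway list. Of the 11 pachytene markers that could be tested, 9 were below 0, with a median log2 fold change of −0.39. All 10 macrophage markers were above 0, with sums of 141 to 176 and 176 to 209 CPM, and 6 of 7 Leydig cell markers were above 0, with sums of 370 to 452 and 423 to 639 CPM that overlapped. Sertoli cell markers summed to 6470 to 7067 and 6518 to 7249 CPM, peritubular and stromal markers to 4430 to 5097 and 4631 to 5352 CPM, and endothelial markers to 174 to 207 and 183 to 206 CPM, and these ranges overlapped between genotypes. Single markers above 0 were 3 of 12 for Sertoli cells, 10 of 11 for peritubular and stromal cells and 6 of 8 for endothelial cells.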

How the data were processed

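Raw read counts per gene, 1 table per mouse, were deposited by the authors without normalization. The submitters' processing notes name HISAT2 2.2.1, SAMtools 1.7.1, HTSeq 2.0.2 and deepTools 3.5.1 with GRCm39. The methods name Salmon, not HTSeq, for quantification and DESeq2 for testing, and the strand setting of counting is not stated. Of the 32 genes, 21 overlap a gene on the other strand. Near-identical sequence in another GENCODE gene was found for 5 (at least 95% identity over at least 50% of the shorter transcript, BLAST+ 2.17.0). *Henmt1*, *Mael*, *Piwil4*, *Pld6*, *Gpat2* and *Wdr77* are among the 21, and the 5 are *Henmt1*, *Pnldc1*, *Tdrkh*, *Stk31* and *Wdr77*. The matches of *Henmt1* (*Gm9857*), *Tdrkh* (*Oaz3*) and *Wdr77* (*Gm42890*) overlap the gene itself, so they are not copies elsewhere. *Pnldc1* and *Stk31* both match *Gm25072*. *Tra2b* has such matches with 5 genes, among them *Gm61009*, which overlaps it on the other strand. The counting may not have kept these apart. The 5 summary lines of each table were left out. Counts were fitted in R 4.3.3 with edgeR 4.0.16 (filterByExpr with a least count of 10, TMM, robust quasi-likelihood test, genotype as the only term), and p-values were adjusted by Benjamini-Hochberg over all 19104 genes. The biological coefficient of variation was 9.56%. Libraries of 1 genotype differed by more than counting noise, and the fit was tested on simulated data. The simulation gave every gene the same dispersion and used changes larger than the median of the list. It therefore does not show how often changes like those of the list would be called. Single genes also had a two-sided exact permutation test over 70 arrangements of log2 CPM. The mice were independent per the methods.

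All 32 genes are named, as are *Tra2b* and, of the wider list, genes called by edgeR or DESeq2 and the 6 with the smallest p, and others named were chosen after their values were seen. The genes and lists were chosen with earlier results of these data known. Alternatives were RLE and upper-quartile factors, other count filters, DESeq2 1.42.0, limma-voom (limma 3.58.1), the replicate letter as a block, marker covariates, a threshold of 0.1 and fits without each mouse. Protein features were planned and not analysed here. Python 3.11.15 and matplotlib 3.10.9 drew the figures.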

Additional observations from a re-analysis of the deposited data

Results flagged for a closer look

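In 7 of the 78 groups of 4 mice examined, where chance gives about 1 in 20 groups or 3.9, a single mouse lay far from the other 3 of its genotype. *Henmt1* was at 9.26 CPM in *Tra2b-cPEko* C and at 10.7 CPM in the other 3. *Tdrd5* was at 29.0 CPM in *Tra2b-cPEko* B and at 35.0 to 35.5 CPM in the others, and *Asz1* was at 32.7 CPM in *Tra2b-cPEko* A and at 33.9 to 34.0 CPM in the others. *Wdr77* was at 136 CPM in *Tra2b-cPEko* B, above 125 to 126 CPM in the others and nearest to the wild type mice. *Coprs* was low in replicate C of both genotypes, at 29.3 CPM in wild type C against 33.3 to 34.1 CPM, and at 26.3 CPM in *Tra2b-cPEko* C against 29.3 to 29.6 CPM. *Dicer1* was at 228 CPM in *Tra2b-cPEko* C and at 221 CPM in the others.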

How the results depend on the processing

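The 30 genes that edgeR called (25 higher, 5 lower) became 58 with upper-quartile factors, 123 without a count filter, 14 with a mean count of at least 50, 507 with DESeq2, 11 with limma-voom, 1 with the leptotene and zygotene covariate, 69 with the pachytene covariate, 1 without wild type A and B, and 156 at a threshold of 0.1. With the replicate block they became 67, with 0 of the 32 genes and 0 of the wider list called. Same-letter mice did not deviate together (correlations 0.0267, −0.136, −0.0393 and 0.116 for A to D, and only the D mice correlated best with their own letter), so the letters were not taken as pairs. Leaving out each mouse gave 3 to 84 called genes, with 84 without wild type C and 3 without *Tra2b-cPEko* D. Of the 32 genes, 0 called became 3 with DESeq2, 1 at a threshold of 0.1 (*Wdr77*) and 0 to 1 when each mouse was left out (*Mael* without wild type C, adjusted p 0.0386), and of the wider list 0 became 3 with DESeq2 and 0 to 1 (*Adad2* without wild type C, adjusted p 0.0498). The adjusted p of *Tra2b*, 0.0552, passed 0.05 with DESeq2 (0.000195), no count filter (0.0128), upper-quartile factors (0.0318), the replicate block (0.0452), and without wild type D (0.0488) or *Tra2b-cPEko* B (0.0487), and was at most 0.184 elsewhere. The 8 genes without overlap became 5 with upper-quartile factors, 7 with RLE factors and 7 to 12 when each mouse was left out, where groups of fewer mice separate more easily by chance, so that these counts are not comparable with the 8. Log2 fold changes turned positive for *Tex15* with upper-quartile factors (0.0040), the leptotene and zygotene covariate (0.048), the pachytene covariate (0.0074), without wild type A (0.0502) and without *Tra2b-cPEko* D (0.0089), with a range of −0.0511 to 0.0502 when each mouse was left out, for *Tdrd5* (0.038) and *Tdrd12* (0.032) with the pachytene covariate, and without wild type A and B for *Tdrd5* (0.0630), *Tdrd6* (0.078), *Tdrd12* (0.0626), *Rnf17* (0.0083), *Stk31* (0.0014) and *Tex15* (0.028). The cause was not tested. Of the single-gene values under the alternatives, 674 kept their direction and side of the threshold, 14 passed it and 13 turned sign. Between 9 and 21 of the 32 genes had an unadjusted p under 0.05 across all settings. Counts per gene do not show isoforms, and *Tdrd6* had the fewest reads of the list, 35 to 165 per mouse.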
